A study of Mus musculus with 9 samples.

Results

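Scramble fibres are C2C12 muscle fibres whose medium was supplemented with 6 metabolites from outside the one-carbon network, and they were compared with control fibres kept in normal medium. The comparison takes 6 of the 9 libraries of the series, 3 scramble and 3 control, assigned by their labels. C2C12 is an established mouse myoblast line. Per the labels all fibres are wild type, were differentiated in DMEM with 2% fetal bovine serum and carry the time label day 3, so the line, the low serum and the time are shared by both groups. The other 3 libraries came from a medium named 1C-MIM with 6 metabolites of the one-carbon network. They entered the choice of transcript, the filter, the scaling and the estimate of the spread between libraries. They were not part of the contrast of scramble with control, and 1C-MIM against control is given only as background. The labels name neither the 6 compounds of the mixture nor their doses. Whether the 3 libraries of each medium were grown as separate cultures is not stated in the labels, so each p-value reflects the scatter among these libraries alone, and that scatter may be technical.

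When C2C12 myoblasts run out of serum growth factors they leave the cell cycle, fuse and assemble sarcomeres, the repeating contractile units of muscle. Some cells do not fuse and remain as mononucleated reserve cells. Cultures at this stage also secrete a matrix of collagens, laminins and proteoglycans. Small leucine-rich proteoglycans are secreted proteins of this matrix that bind collagen and, in several cases, growth factors of the TGF-beta family. The Id proteins bind the partners of the myogenic factors, such as Myod1, and hold back differentiation. A scramble mixture serves such a design as a second reference beside normal medium, and the comparison here asks how fibres in that reference differ from unsupplemented fibres.

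The depth was 29.1 to 33.2 M counts per library over 1 transcript per gene. Both libraries numbered 1 stood apart from the others of their group. On the first principal component of the 6 libraries, which carried 45% of the variance in log2 CPM (counts scaled to the normalized library size), control replicates 1 to 3 scored 28.0, -10.8 and -14.4. Scramble replicates 1 to 3 scored 12.9, -9.07 and -6.61. The group labels were not what this component separated: it set both first replicates against the other 4 libraries. The 13 markers of differentiated fibres moved with it, with a summed level of 12800, 7430 and 6320 CPM in control and of 10900, 7340 and 7580 CPM in scramble. In such bulk libraries fewer fibres and less RNA per fibre cannot be told apart. Markers of other cell types were also summed in each library. All 4 endothelial markers stayed under 1 CPM, with Tie1 at 0, and the 3 immune markers summed to 2.60 to 3.19 CPM over the 6 libraries. The 5 osteoblast markers summed to 64.3 to 69.0 CPM, with 4 of them under 1 CPM. The 4 neuron markers summed to 50.7 to 80.0 CPM, with Rbfox3 and Snap25 at 0 and only Tubb3 at or above 1 CPM. The 6 adipocyte markers summed to 197 to 212 CPM in control and 226 to 241 CPM in scramble, with Cidec at 0 and 4 under 1 CPM. The 5 cardiomyocyte markers, some of which embryonic skeletal muscle also expresses, summed to 677 to 967 CPM in control and 765 to 857 CPM in scramble. The part of such cells in the results was not tested. The comparison was made with all 6 libraries and again without the libraries numbered 1, which leaves 2 against 2.

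With all 6 libraries and without a term for the replicate number, edgeR and limma-voom called no gene between scramble and control, while DESeq2 called 4. With the replicate number as a block, the 6 libraries alone gave 9 calls, described after the matrix genes. By edgeR's quasi-likelihood test on 14006 genes, 0 (0%) had a Benjamini-Hochberg adjusted p below 0.05, and 482 (3.44%) had an unadjusted p below 0.05. Of these 482, scramble was higher in 249 (1.78%) and lower in 233 (1.66%). With library size alone as the scale the split was 185 higher and 308 lower, so the balance of directions depends on the scaling. limma-voom called 0 genes. DESeq2 gave an adjusted p to 7489 of the 14006 genes and called 4 (0.0286% of the 14006). These were Omd, Olfml2b, Sulf2 and Fbln1, all higher with scramble. Without control replicate 1 alone, edgeR called 3 (0.0212%), Omd and Fbln7 higher (0.0142%) and Dynap lower (0.00708%). The median absolute log2 fold change was 0.06 (39 genes differed by at least 2-fold). In the same fit, 1C-MIM against control gave a median of 0.23 and 6621 genes called (47.3%). The libraries of scramble and control did not overlap for 1273 genes (9.09%), 677 with all scramble values above (4.83%) and 596 with all below (4.26%).

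Without the libraries numbered 1, edgeR called 96 of 14020 genes (0.685%). Scramble was higher in 81 of them (0.578%) and lower in 15 (0.107%). With those 4 control and scramble libraries fitted alone it called 157 (1.13%), 129 higher (0.932%) and 28 lower (0.202%). The estimated biological coefficient of variation was 0.0842 with all libraries and 0.0364 without those numbered 1, against 0.103 and 0.0950 without those numbered 2 or 3, which gave 0 calls each by edgeR (154 and 252 genes at an unadjusted p below 0.05). As a set, the 81 higher genes did not differ in the first replicates. Their median log2 difference between scramble and control of the same number was -0.01 in pair 1, 0.23 in pair 2 and 0.30 in pair 3. In pair 1, 39 of the 81 lay above 0. The 15 lower genes had medians of -0.07, -0.23 and -0.27, and 10 of them lay below 0 in pair 1. In 78 of the 81, control replicate 1 lay above the mean of control replicates 2 and 3, and in 14 of the 15 lower genes it lay below it. Pairs 2 and 3 chose these genes, so their values are descriptive. The same holds for the place of control replicate 1 beside control replicates 2 and 3, which the choice itself favours. With all 6 libraries, 90 of the 96 had the same direction and 31 had groups that did not overlap (9.09% of all genes). Of these 6 libraries 4 had also chosen the 96 genes, so these 2 counts are descriptive too. The calls also depended on single libraries among the remaining 4. Without control replicate 2, control replicate 3, scramble replicate 2 or scramble replicate 3, 11, 8, 49 and 24 of the 96 were still called. Only Omd, Ogn, Fbln7 and Id2 were called under each of these 4 removals, and 36 were called under none.

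**Figure D1:**
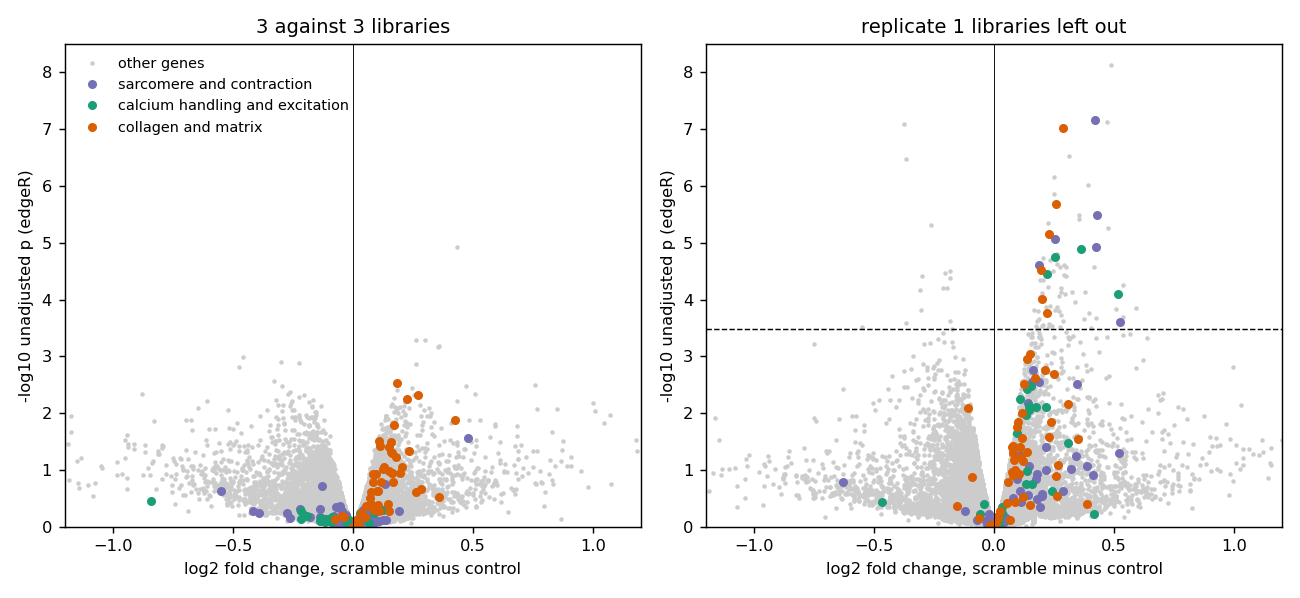
Each point is a gene, with the log2 fold change of scramble minus control on the x axis and the -log10 of edgeR's unadjusted p on the y axis, for 3 against 3 libraries (left) and with the replicate 1 libraries left out (right). The dashed line marks the largest p among called genes, and genes beyond 1.2 on the log2 scale are not drawn. Collagen and matrix genes lie mostly right of 0 in both panels, while sarcomere and calcium genes lie on both sides of 0 on the left and mostly right of 0 on the right.

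The matrix list had a median above 0 in all 3 numbered pairs, by small amounts. Of 51 collagen and matrix genes tested, 47 had a log2 fold change above 0 (47.7% of all genes did), and the list's median was 0.11 against -0.00448 over all genes. The median was 0.10, 0.12 and 0.11 in pairs 1, 2 and 3 and 0.12 without the libraries numbered 1, where 46 genes were above 0 (49.7% of all genes were). In 19 of the 51 all scramble values lay above all control values and in 0 below, beside 4.83% and 4.26% of all genes. With all 6 libraries 0 of the 51 were called, and 11 had an unadjusted p below 0.05 (all higher, against 1.78% of all genes). Without the libraries numbered 1, 6 were called higher and 0 lower (0.578% and 0.107% of all genes): Ogn, Dcn, Mmp2, Nid2, Col3a1 and Fbn1. The 22 markers of myoblasts and reserve cells, which also secrete matrix, summed to 2660 to 2860 CPM in control and 2770 to 2960 CPM in scramble, and their part in these values was not tested.

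The small leucine-rich proteoglycans, a list drawn up after these values had been seen, held the gene with the smallest p of all. All 12 tested members had a log2 fold change above 0, with a median of 0.25, and 5 of them are also on the matrix list. Without the libraries numbered 1, 11 of the 12 were above 0, with a median of 0.26. Omd encodes osteomodulin, a keratan sulfate proteoglycan first known from bone. It stood at 43.3, 40.6 and 42.4 CPM in control replicates 1 to 3 and at 54.1, 58.0 and 58.5 CPM in scramble. The groups did not overlap, and the gap between them was wider than the range within either. The log2 fold change was 0.43 ± 0.06 (SE), and the edgeR adjusted p of 0.167 was the smallest of all genes. Under the replicate block it was 0.0904 with all libraries and 0.00697 with the 6 libraries alone. Omd rose by 0.49 ± 0.05 without the libraries numbered 1 (edgeR adjusted p = 0.000103), and without control replicate 1 alone its adjusted p was 0.0276.

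Ogn encodes osteoglycin and Aspn encodes asporin, further members of this family. Ogn stood at 1466, 1529 and 1560 CPM in control and at 1727, 1896 and 1875 CPM in scramble. Aspn stood at 48, 47.5 and 49.4 CPM in control and at 53.5, 59.5 and 56.7 CPM in scramble. For both genes every scramble library lay above every control library. The log2 fold changes were 0.27 ± 0.08 for Ogn and 0.23 ± 0.14 for Aspn, with edgeR adjusted p of 1.00. They rose without the libraries numbered 1, by 0.29 ± 0.03 (adjusted p = 0.000263) and 0.26 ± 0.05 (adjusted p = 0.0118). Leaving out control replicate 2 or 3, or scramble replicate 2, ended the call of Aspn (adjusted p = 0.202, 0.119 and 0.105).

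Aspn, Omd and Ogn are neighbours on chromosome 13, in the order Ecm2, Aspn, Omd, Ogn, Nol8 in RefSeq's annotation of GRCm38.p6. Ecm2, another matrix gene of the leucine-rich repeat kind, had a log2 fold change of 0.13 ± 0.09, and Nol8, a nucleolar protein gene, one of -0.09 ± 0.06; neither was called with or without the libraries numbered 1. The 250 bases before each start are printed because the 3 neighbouring genes were higher together. They come from RefSeq (GRCm38.p6, while the submitters' processing notes name GRCm39): chr13:49544193-49544442 for Aspn, chr13:49582212-49582461 for Omd and chr13:49607765-49608014 for Ogn, all on the plus strand. Capitals mark matches, on either strand, to 3 motifs. An E-box of the kind that myogenic factors bind was searched as CAGCTG. The TATA box was searched as TATAAA. The site of TEAD factors was searched as GGAATG.
Aspn: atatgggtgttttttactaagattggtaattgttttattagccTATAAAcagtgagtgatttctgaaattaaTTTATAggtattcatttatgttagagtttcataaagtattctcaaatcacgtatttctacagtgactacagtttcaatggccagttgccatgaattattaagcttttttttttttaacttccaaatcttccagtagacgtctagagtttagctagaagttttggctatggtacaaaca
Omd: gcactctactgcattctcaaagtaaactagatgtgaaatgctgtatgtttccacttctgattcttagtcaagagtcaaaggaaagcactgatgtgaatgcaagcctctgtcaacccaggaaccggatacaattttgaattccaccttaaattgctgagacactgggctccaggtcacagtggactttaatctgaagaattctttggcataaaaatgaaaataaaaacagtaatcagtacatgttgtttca
Ogn: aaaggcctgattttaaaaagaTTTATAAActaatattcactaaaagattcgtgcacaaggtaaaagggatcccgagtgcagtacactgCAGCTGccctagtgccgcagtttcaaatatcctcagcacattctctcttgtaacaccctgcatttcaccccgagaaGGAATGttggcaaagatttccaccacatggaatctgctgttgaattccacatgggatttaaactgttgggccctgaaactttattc
Aspn holds 2 TATAAA matches and Omd holds none of the 3 motifs. Ogn holds 1 CAGCTG, 1 GGAATG and 2 TATAAA matches, which overlap each other on opposite strands. Of 32851 mouse windows of this length, 13% held CAGCTG, 12.4% TATAAA and 12.6% GGAATG. The windows are 70.0%, 61.6% and 58.0% A and T, against a median of 47.6%. These matches describe the sequence and show no binding.

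Of the other members, Dcn, Bgn and Lum also had groups that did not overlap. In 6 of the 12 tested members all scramble values lay above all control values and in 0 below, beside 4.83% and 4.26% of all genes. The list was drawn up after these values had been seen, so this count is descriptive. Dcn encodes decorin, which coats collagen fibrils and binds TGF-beta. It stood at 193, 196 and 204 CPM in control and at 214, 231 and 227 CPM in scramble, which do not overlap (log2 fold change 0.18 ± 0.05, edgeR adjusted p = 1.00). It rose by 0.20 ± 0.04 without the libraries numbered 1 (adjusted p = 0.0125), a call lost when any 1 of the remaining libraries was left out (adjusted p = 0.0643 to 0.235). Bgn, encoding biglycan, stood at 2681, 2845 and 2875 CPM in control and at 3141, 3038 and 3204 CPM in scramble. Its log2 fold change was 0.16 ± 0.07 with all 6 libraries and 0.13 ± 0.04 without those numbered 1, and it was not called in either. Lum, encoding lumican, stood at 2.17, 2.69 and 2.41 CPM in control and at 3.66, 3.07 and 3.02 CPM in scramble. Its log2 fold change of 0.42 ± 0.14 was close in size to that of Omd, with a larger error, and it was not called (edgeR adjusted p = 1.00). It was 0.26 ± 0.16 without the libraries numbered 1 (adjusted p = 0.655).

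Fbln1 and Fbln7, which are on none of the lists, were among the 10 smallest p. Fbln1, a fibulin of basement membranes and elastic fibres, stood at 223, 181 and 209 CPM in control and at 270, 254 and 259 CPM in scramble. Fbln7, another fibulin, stood at 79.2, 63.6 and 69.7 CPM in control and at 88.1, 89.0 and 95.5 CPM in scramble. In both, control replicate 1 was the highest control and still lay below all scramble libraries. The log2 fold changes were 0.35 ± 0.08 and 0.36 ± 0.08, with edgeR adjusted p of 1.00. Under the replicate block with the 6 libraries alone, Fbln1 was called (adjusted p = 0.00697) and Fbln7 was not (adjusted p = 0.163). Fbln1 rose by 0.39 ± 0.06 (adjusted p = 0.0336) and Fbln7 by 0.47 ± 0.05 (adjusted p = 0.000263) without the libraries numbered 1. The Fbln1 call was lost without scramble replicate 2 or 3 (adjusted p = 0.185 and 0.294). Of the matrix list, Nid2, a nidogen that links laminin to collagen IV, had a log2 fold change of 0.17 ± 0.06 with all 6 libraries, not called, and rose by 0.23 ± 0.04 without those numbered 1. Its call was lost without control replicate 3 or scramble replicate 3 (adjusted p = 0.211 and 0.0832). Fbn1, the fibrillin of microfibrils, had 0.16 ± 0.09 with all 6 libraries, not called, and rose by 0.20 ± 0.04 without those numbered 1, a call lost under each further removal (adjusted p = 0.0741 to 0.348). Hspg2, which encodes perlecan, stood at 1394, 1324 and 1334 CPM in control and at 1592, 1442 and 1484 CPM in scramble. It was not called with or without the libraries numbered 1 (adjusted p = 0.101 in the latter).

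Enzymes and secreted proteins that act on the matrix were among the smallest p with all 6 libraries. Sulf2 removes sulfate groups from heparan sulfate. It stood at 124, 108 and 113 CPM in control and at 142, 144 and 138 CPM in scramble (log2 fold change 0.30 ± 0.06, edgeR adjusted p = 1.00). Olfml2b, a secreted olfactomedin-like protein, stood at 161, 161 and 158 CPM in control and at 200.3, 197 and 178 CPM in scramble (0.26 ± 0.05, adjusted p = 1.00). Neither gene's groups overlapped, and under the replicate block with the 6 libraries alone both were called (adjusted p = 0.0259 each). Without the libraries numbered 1 they rose by 0.35 ± 0.05 (adjusted p = 0.00357) and 0.23 ± 0.05 (adjusted p = 0.0298). The Sulf2 call was lost without control replicate 2 or 3 (adjusted p = 0.108 and 0.0612), and that of Olfml2b was kept only without scramble replicate 3 (adjusted p = 0.00980, against 0.232, 0.375 and 0.237 otherwise). Mmp2, a gelatinase, stood at 861, 771 and 816 CPM in control and at 965, 924 and 972 CPM in scramble. Its log2 fold change was 0.22 ± 0.07 with all 6 libraries (adjusted p = 1.00), and it rose by 0.26 ± 0.04 without those numbered 1 (adjusted p = 0.00262), a call lost without control replicate 2 (adjusted p = 0.123). Col3a1, a fibrillar collagen, stood at 6630, 5741 and 6208 CPM in control and at 6828, 6667 and 7272 CPM in scramble. It had 0.16 ± 0.07 with all 6 libraries, not called, and rose by 0.22 ± 0.04 without those numbered 1, a call kept only without scramble replicate 2 among the further removals (adjusted p = 0.00515).

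**Figure D2:**
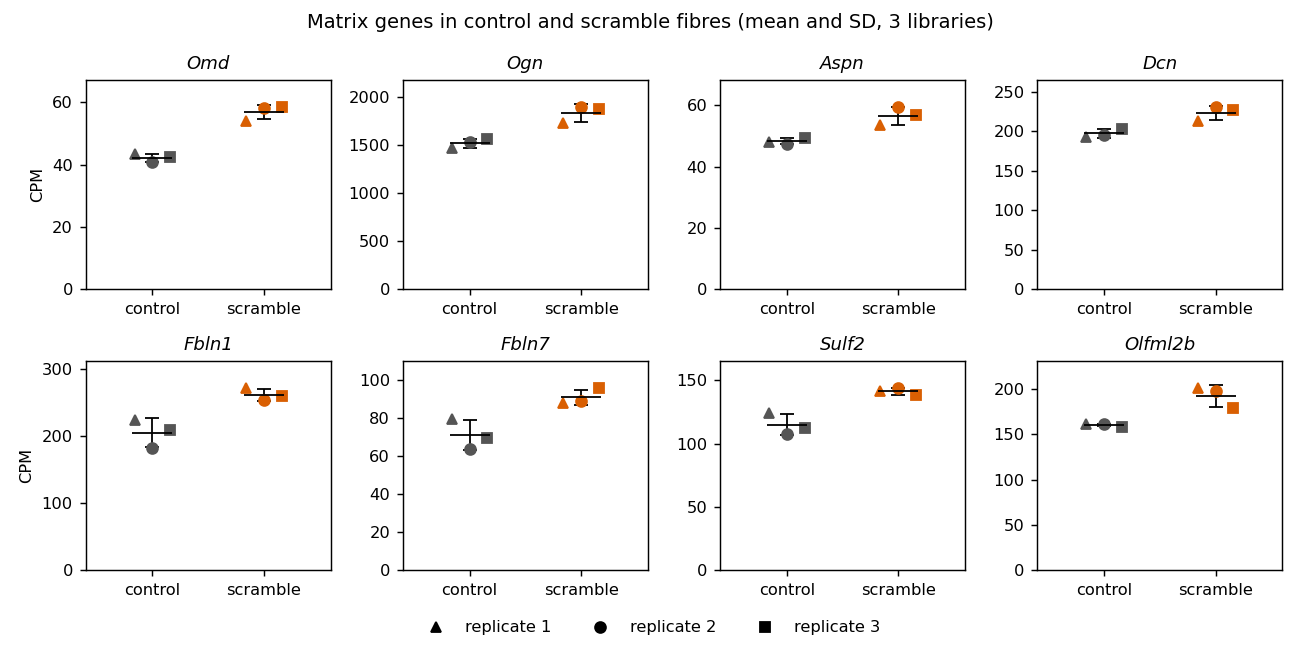
Levels in CPM (y axis, from 0) of 8 matrix genes in the 3 control and 3 scramble libraries, with the symbol giving the replicate number and bars the mean and SD over 3 libraries. In all 8 genes every scramble library lies above every control library, by a margin that is small beside the level itself.

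The replicate number taken as a block, with the 6 libraries alone, called 9 genes (0.0651%). The 7 higher ones (0.0506%) were Omd, Fbln1, Sulf2, Olfml2b, Igf2, Enpp3 and Cilp, and the 2 lower ones (0.0145%) were the metallothioneins Mt1 and Mt2. Cilp, a matrix protein of cartilage that binds TGF-beta, stood at 305, 241 and 249 CPM in control and at 375, 295 and 314 CPM in scramble. Its groups overlapped, and each scramble library lay above the control of the same number (0.31 ± 0.04 under the block, adjusted p = 0.00697). Enpp3, an ectonucleotide pyrophosphatase, stood at 65.3, 66.3 and 67.6 CPM in control and at 76.5, 81.1 and 81.2 CPM in scramble, which do not overlap (0.26 ± 0.04, adjusted p = 0.0279). Mt1, a metal-binding protein, stood at 107, 125 and 134 CPM in control and at 92.6, 94.9 and 113 CPM in scramble. The groups overlapped, and each scramble library lay below the control of the same number (-0.29 ± 0.04, adjusted p = 0.0259). Without the libraries numbered 1 and without a block, the fit that kept the other 1C-MIM libraries called none of Cilp, Enpp3 and Mt1. Their log2 fold changes there were 0.31 ± 0.12, 0.28 ± 0.06 and -0.32 ± 0.08 (edgeR adjusted p = 0.538, 0.101 and 0.219). With all 1C-MIM libraries also left out, still without a block, Cilp and Enpp3 were called higher (edgeR adjusted p = 0.000197 and 0.00257). Mt1 was not called in that fit (adjusted p = 0.287). With all 9 libraries in the blocked fit 0 genes were called by edgeR, 690 at an unadjusted p below 0.05.

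Contraction genes had no common direction with all 6 libraries and were mostly higher with scramble without the libraries numbered 1. Of 55 sarcomere genes, 21 had a log2 fold change above 0 with all 6 libraries (median -0.03, 0 called) and 44 without those numbered 1 (median 0.14, 6 called higher, 0 lower). The list's median was -0.20 in pair 1, -0.02 in pair 2 and 0.25 in pair 3. Control replicate 1 exceeded the other 2 controls by a median of 0.78 on these genes, and scramble replicate 1 exceeded its group by 0.41. The 6 called were Myh7, Actn2, Mybpc1, Xirp1, Synpo2l and Flnc, beside 0.578% of all genes called higher. Myh7, the slow myosin heavy chain, stood at 207, 75.7 and 71.9 CPM in control and at 176, 95.3 and 102 CPM in scramble. The first replicate of each group was far above the other 2 libraries, and the groups overlapped only through it. The log2 fold change was 0.08 ± 0.46 with all 6 libraries (edgeR adjusted p = 1.00) and 0.42 ± 0.05 without those numbered 1 (adjusted p = 0.000263), a call lost without control replicate 3 (adjusted p = 0.0549).

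Actn2, the alpha-actinin of the Z-disc, had the same layout, with 43.1, 18.7 and 17.0 CPM in control and 36.8, 23.2 and 24.7 CPM in scramble. It rose by 0.42 ± 0.07 without the libraries numbered 1 (edgeR adjusted p = 0.00840), a call kept only without scramble replicate 2 among the 4 further removals (adjusted p = 0.0157). In the same comparison Mybpc1, slow myosin-binding protein C, rose by 0.52 ± 0.12, Xirp1, which binds actin at sites of remodelling, by 0.43 ± 0.06, and the Z-disc genes Synpo2l and Flnc by 0.25 ± 0.04 and 0.18 ± 0.03. With all 6 libraries the log2 fold changes of these 4 genes were 0.07 to 0.12 and none was called. The calls of Mybpc1 and Flnc were lost under each further removal (adjusted p = 0.0830 to 0.489 and 0.0656 to 0.184). Xirp1 kept its call only without scramble replicate 2 (adjusted p = 0.000508), and Synpo2l lost it without control replicate 3 or scramble replicate 3 (adjusted p = 0.222 and 0.0643).

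Genes of calcium release and membrane excitation followed the same layout. Of 26 tested, 7 had a log2 fold change above 0 with all 6 libraries (median -0.09) and 23 without those numbered 1 (median 0.14). Of the 26, 4 were called higher and 0 lower in the latter (0.578% and 0.107% of all genes). The medians in pairs 1 to 3 were -0.27, 0.09 and 0.20. Ryr1, the calcium release channel of the sarcoplasmic reticulum, stood at 323, 121 and 117 CPM in control and at 208, 135 and 148 CPM in scramble. Control replicate 1 was the highest library and control replicates 2 and 3 the lowest. The log2 fold change was -0.19 ± 0.41 with all 6 libraries (edgeR adjusted p = 1.00) and 0.25 ± 0.04 without those numbered 1 (adjusted p = 0.0105), so the sign itself rested on those libraries. Cacna1s, the voltage sensor that opens it, had a log2 fold change of -0.14 ± 0.51 and 0.36 ± 0.06. The muscle sodium channel Scn4a had -0.22 ± 0.60 and 0.52 ± 0.10, and Atp2a1, the calcium pump of fast fibres, -0.12 ± 0.47 and 0.22 ± 0.04. All 3 were called without the libraries numbered 1 and not with all 6. Under the 4 further removals, Ryr1 and Cacna1s kept their calls only without scramble replicate 2 (adjusted p = 0.00335 each, against 0.108 to 0.248 and 0.151 to 0.184 otherwise). Scn4a kept its call only without scramble replicate 3 (adjusted p = 0.0481), and Atp2a1 lost it in all 4 (adjusted p = 0.0518 to 0.320).

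**Figure D3:**
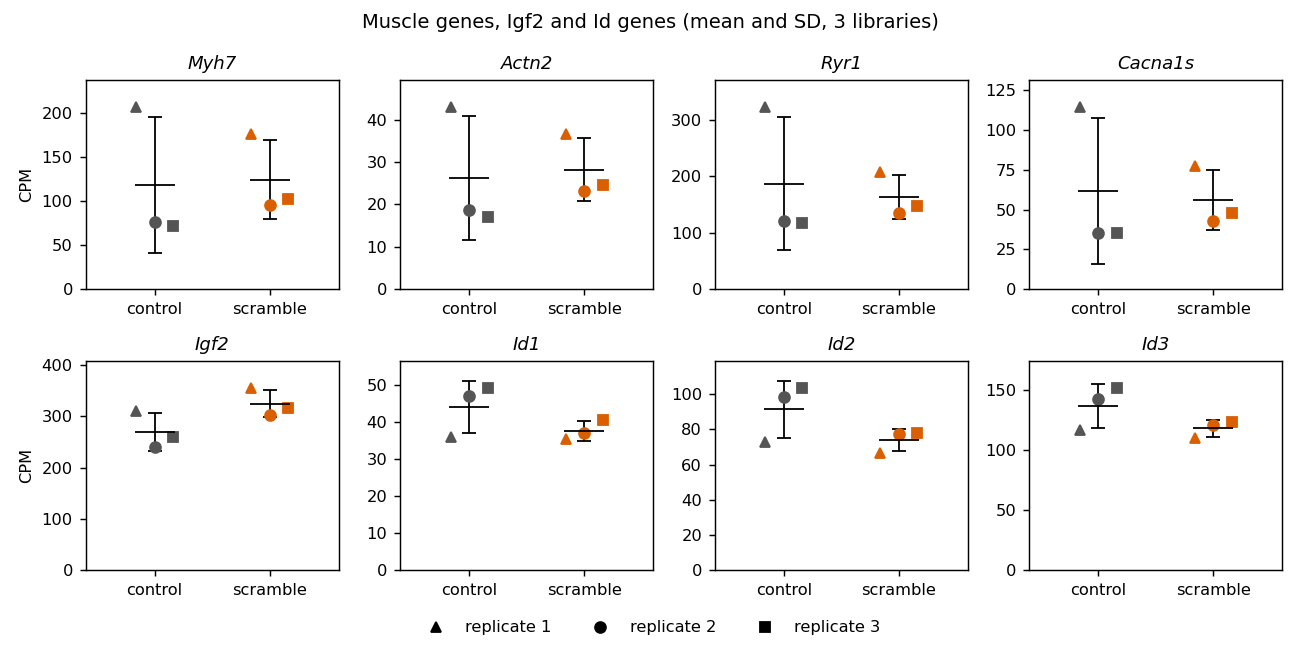
Levels in CPM (y axis, from 0) of 8 genes in the 3 control and 3 scramble libraries, with the symbol giving the replicate number and bars the mean and SD over 3 libraries. In Myh7, Actn2, Ryr1 and Cacna1s the first replicate (triangle) of each group is far above the other 2, and in Id1, Id2 and Id3 it is the lowest of its group.

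Of 26 myogenic regulators and fusion genes, 0 were called with all 6 libraries and 3 rose and 0 fell without those numbered 1 (0.578% and 0.107% of all genes): Igf2, Itga7 and Tmem8c. Igf2, an imprinted growth factor that promotes muscle differentiation, stood at 311, 240 and 259 CPM in control and at 354, 303 and 317 CPM in scramble. Control replicate 1 overlapped the scramble range, and each scramble library lay above the control of the same number. The log2 fold change was 0.27 ± 0.10 with all libraries (edgeR adjusted p = 1.00), 0.27 ± 0.04 under the replicate block with the 6 libraries alone (adjusted p = 0.0259) and 0.31 ± 0.04 without the libraries numbered 1 (adjusted p = 0.00066). Its call in the last was lost without control replicate 2 (adjusted p = 0.0552). Igf2r, the receptor that clears Igf2, had 0.10 ± 0.11 with all libraries and rose by 0.19 ± 0.04 without those numbered 1 (adjusted p = 0.0481), a call lost under each further removal (adjusted p = 0.218 to 0.405). Tmem8c, which encodes the fusion protein myomaker, stood at 304, 138 and 132 CPM in control and at 269, 159 and 165 CPM in scramble. It had 0.05 ± 0.37 with all libraries and rose by 0.26 ± 0.05 without those numbered 1, a call kept only without scramble replicate 2 (adjusted p = 0.0255).

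The Id genes were lower with scramble once the libraries numbered 1 were left out. Id2 stood at 73.0, 98.1 and 103 CPM in control and at 66.7, 77.5 and 77.8 CPM in scramble. Id3 stood at 117, 142 and 151 CPM in control and at 110, 121 and 123 CPM in scramble. Id1 stood at 35.9, 46.9 and 49 CPM in control and at 35.3, 37.0 and 40.5 CPM in scramble. In each gene control replicate 1 fell among the scramble values, and in each pair the scramble library was the lower. With all 6 libraries the log2 fold changes were -0.31 ± 0.12, -0.21 ± 0.08 and -0.23 ± 0.11 for Id2, Id3 and Id1 (edgeR adjusted p = 1.00). With the libraries numbered 1 left out they fell by 0.38 ± 0.04 (adjusted p = 0.000263), 0.26 ± 0.04 (adjusted p = 0.00425) and 0.31 ± 0.06 (adjusted p = 0.0197). Id3 lost its call without control replicate 3 (adjusted p = 0.183), and Id1 kept it only without scramble replicate 3 (adjusted p = 0.0307, against 0.154, 0.371 and 0.218).

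The Id genes are also targets of BMP signalling. Of 22 genes of the TGF-beta, activin and BMP list, 0 were called with all 6 libraries. Without those numbered 1, 4 fell (Id1, Id2, Id3 and Grem1; 0.107% of all genes) and 1 rose (Tgfb3; 0.578%), and the list's median was -0.08 in both comparisons. Grem1, a secreted BMP antagonist, stood at 295, 401 and 392 CPM in control and at 311, 354 and 343 CPM in scramble. It had -0.11 ± 0.16 with all 6 libraries and fell by 0.19 ± 0.04 without those numbered 1. Tgfb3, a ligand, had 0.12 ± 0.10 and rose by 0.19 ± 0.04. Both calls were kept only without scramble replicate 2 among the 4 further removals (edgeR adjusted p = 0.0383 and 0.0494). Among 21 markers of myoblasts and reserve cells, 3 fell (the Id genes) and 2 rose without the libraries numbered 1, beside the same shares of all genes. Most of this list did not follow the Id genes. With all 6 libraries 15 of the 21 had a log2 fold change above 0 (median 0.06, against 47.7% of all genes). Without those numbered 1, 12 of the 21 did (median 0.03, against 49.7% of all genes). Heyl, a Notch target, stood at 62.2, 42.4 and 47.3 CPM in control and at 74.7, 63.7 and 55.9 CPM in scramble (0.36 ± 0.14 with all 6 libraries, not called). It rose by 0.41 ± 0.07 without those numbered 1 (adjusted p = 0.0118), a call lost without control replicate 2 (adjusted p = 0.123). Itga7, the laminin receptor subunit of muscle, had 0.05 ± 0.15 and rose by 0.18 ± 0.04 (adjusted p = 0.0419), a call lost under each further removal (adjusted p = 0.119 to 0.443).

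Further genes named by size without the libraries numbered 1 belong to no single list. Mylk4, a kinase of the myosin light chain kinase family, stood at 13.5, 5.76 and 6.72 CPM in control and at 11, 9.32 and 9.50 CPM in scramble, and had the largest rise among genes of at least 5 CPM (0.59 ± 0.12, edgeR adjusted p = 0.0304). Its call was lost when any 1 of the remaining libraries was left out (adjusted p = 0.107 to 0.370). Its log2 fold change with all 6 libraries was 0.21 ± 0.28, and the call was lost under each further removal (adjusted p = 0.107 to 0.370). Rassf4, a Ras-association protein, rose by 0.54 ± 0.12 without the libraries numbered 1 and had 0.41 ± 0.14 with all 6. Trp63, a p53 family transcription factor, stood at 22.7, 11 and 10.8 CPM in control and at 19.9, 16.9 and 14.7 CPM in scramble. Cemip, which degrades hyaluronan, stood at 16.4, 6.78 and 7.11 CPM in control and at 12.7, 10 and 9.78 CPM in scramble. In both genes control replicate 1 was the highest of the 6 libraries. Trp63 rose by 0.53 ± 0.10 and Cemip by 0.51 ± 0.11 without the libraries numbered 1, against 0.21 ± 0.30 and 0.11 ± 0.32 with all 6. Esr1, the oestrogen receptor alpha, rose by 0.47 ± 0.08 (0.34 ± 0.16 with all 6). On the lower side Hpgd, which inactivates prostaglandins, fell by 0.37 ± 0.08 (-0.33 ± 0.08 with all 6) and Irx3, a homeobox factor, by 0.30 ± 0.06 (-0.26 ± 0.07). Slc16a11, a monocarboxylate transporter, fell by 0.30 ± 0.06 (-0.23 ± 0.07) and Rasa1, a Ras GTPase-activating protein, by 0.20 ± 0.04 (-0.16 ± 0.05). None of these genes was called with all 6 libraries. Cemip, Hpgd, Irx3 and Rasa1 lost their calls under each further removal (adjusted p = 0.0719 to 0.531). Rassf4 and Slc16a11 kept theirs only without scramble replicate 2 (adjusted p = 0.0433 and 0.00713), and Trp63 only without scramble replicate 3 (adjusted p = 0.0270). Esr1 lost its call without control replicate 2 or 3 (adjusted p = 0.0518 and 0.159). Dynap, a dynactin-associated protein, stood at 44.6, 71.2 and 75.4 CPM in control and at 52.5, 56.8 and 56.9 CPM in scramble. Its control replicate 1 was the lowest of the 6, and it fell by 0.37 ± 0.05 without the libraries numbered 1 (edgeR adjusted p = 0.000660), against -0.20 ± 0.16 with all 6. The call was lost without control replicate 3 (adjusted p = 0.0797).

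Lipid genes gave calls only without the libraries numbered 1, all higher with scramble. Of 15 genes of fatty acid synthesis, 13 had a log2 fold change above 0 in both comparisons (medians 0.08 and 0.07), 6 had all scramble values above all control values (4.83% of all genes) and 0 had all below (4.26%). None was called with all 6 libraries, and 4 had an unadjusted p below 0.05, all higher (1.78% of all genes). Without the libraries numbered 1, 2 were called higher and 0 lower (0.578% and 0.107%). Scd1, a stearoyl-CoA desaturase, stood at 568, 507 and 503 CPM in control and at 618, 576 and 603 CPM in scramble. Scd2, its relative, stood at 1238, 1076 and 1128 CPM in control and at 1266, 1265 and 1276 CPM in scramble. Neither gene's groups overlapped, and without the libraries numbered 1 they rose by 0.22 ± 0.04 (edgeR adjusted p = 0.00411) and 0.20 ± 0.04 (adjusted p = 0.0106). Both calls held only without scramble replicate 2 among the 4 single removals (adjusted p = 0.00536 and 0.0426). The desaturases of polyunsaturated fatty acids Fads1 and Fads2 had log2 fold changes of 0.16 ± 0.05 and 0.19 ± 0.07 and were not called in either comparison.

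Genes of the one-carbon network, outside which the metabolites of this mixture lie per the labels, gave 1 call. Of 26 folate cycle genes, 0 were called with all 6 libraries and 1 fell without those numbered 1 (0.107% of all genes were called lower). This was Mthfd1l, which releases formate from mitochondrial folate, at 75.6, 103 and 106 CPM in control and 87.2, 89.8 and 89.9 CPM in scramble. Control replicates 2 and 3 lay above all scramble libraries and control replicate 1 below them. It fell by 0.21 ± 0.04 without the libraries numbered 1 (edgeR adjusted p = 0.0185), a call lost when any 1 further library was left out (adjusted p = 0.0978 to 0.287). Of 18 methionine cycle and transsulfuration genes 0 were called in either comparison. The medians of these 2 lists were -0.04 and -0.03 with all libraries, against -0.00448 over all genes. Of the 26 and 18 genes, 6 and 6 had a log2 fold change above 0 (47.7% of all genes). In the folate list 1 gene had all scramble values above all control values and 3 had all below. In the methionine list 1 had all above and 2 had all below (4.83% and 4.26% of all genes).

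Targets of the stress factor ATF4 went both ways. Of 43 genes of serine synthesis and ATF4 response, 5 had all scramble values above control (4.83% of all genes) and 3 had all below (4.26%). The median was 0.01 in both comparisons, and 0 were called with all 6 libraries against 1, Trib3, lower without those numbered 1 (0.107% of all genes). Trib3, a pseudokinase induced by ATF4, stood at 6.67, 7.55 and 7.62 CPM in control and at 5.54, 5.60 and 4.75 CPM in scramble. Fgf21, a stress hormone also induced by ATF4, stood at 9.16, 7.90 and 6.81 CPM in control and at 12.7, 9.32 and 11 CPM in scramble. Neither gene's groups overlapped, in opposite directions. Trib3 had a log2 fold change of -0.46 ± 0.10 (edgeR adjusted p = 1.00) and fell by 0.55 ± 0.13 without the libraries numbered 1 (adjusted p = 0.0469), a call lost when any 1 further library was left out (0.0591 to 0.427). Fgf21 had 0.47 ± 0.13 and 0.47 ± 0.11 and was not called in either (adjusted p = 0.0574 in the latter).

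The other genes with the smallest p with all 6 libraries were Trmt10a, Ip6k2 and Snord96a. Trmt10a, a tRNA methyltransferase, stood at 20.4, 22 and 21.2 CPM in control and at 16.1, 17.6 and 18.0 CPM in scramble (-0.30 ± 0.07). Ip6k2, an inositol hexakisphosphate kinase, stood at 26.0, 25.7 and 26.9 CPM in control and at 21.9, 22.9 and 22.4 CPM in scramble (-0.23 ± 0.05). Snord96a, a small nucleolar RNA within the gene Rack1, stood at 4.06, 3.93 and 4.22 CPM in control and at 3.04, 2.87 and 2.88 CPM in scramble (-0.47 ± 0.11). The groups did not overlap for any of the 3, and none was called with or without the libraries numbered 1. Of the 66 genes tracked by name, 10 share exon sequence with another protein-coding gene in GENCODE vM21, and their counts are uncertain because strand use in the counting is not given: Aspn, Atp2a1, Fbn1, Igf2, Itga7, Nid2, Rasa1, Snord96a, Tgm2 and Trmt10a. Overlaps with noncoding genes were not checked, nor were genes outside the 66, among them Bgn, Hspg2, Spp1, Pygm, C1qtnf3 and Angptl1.

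Genes of growth and cell division changed sign between the numbered pairs. Of 79 cytosolic ribosomal protein genes, 0 were called in either comparison. With all 6 libraries 23 of the 79 had a log2 fold change above 0 (median -0.01), and without those numbered 1 none did (median -0.06), while pairs 1, 2 and 3 had medians of 0.08, -0.05 and -0.07. For 45 DNA replication genes the pair medians were 0.09, -0.05 and -0.10, and for 39 ribosome biogenesis genes 0.07, -0.03 and -0.10. For 45 mitosis genes they were 0.12, -0.03 and -0.01. No gene of these 3 lists was called in either comparison. The 23 glycolysis genes had a median of -0.05 and the 76 nuclear-encoded respiratory chain genes one of 0.01, with 0 calls in both lists. With all 6 libraries 3 of the 23 and 48 of the 76 had a log2 fold change above 0, against 47.7% of all genes.

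**Figure D4:**
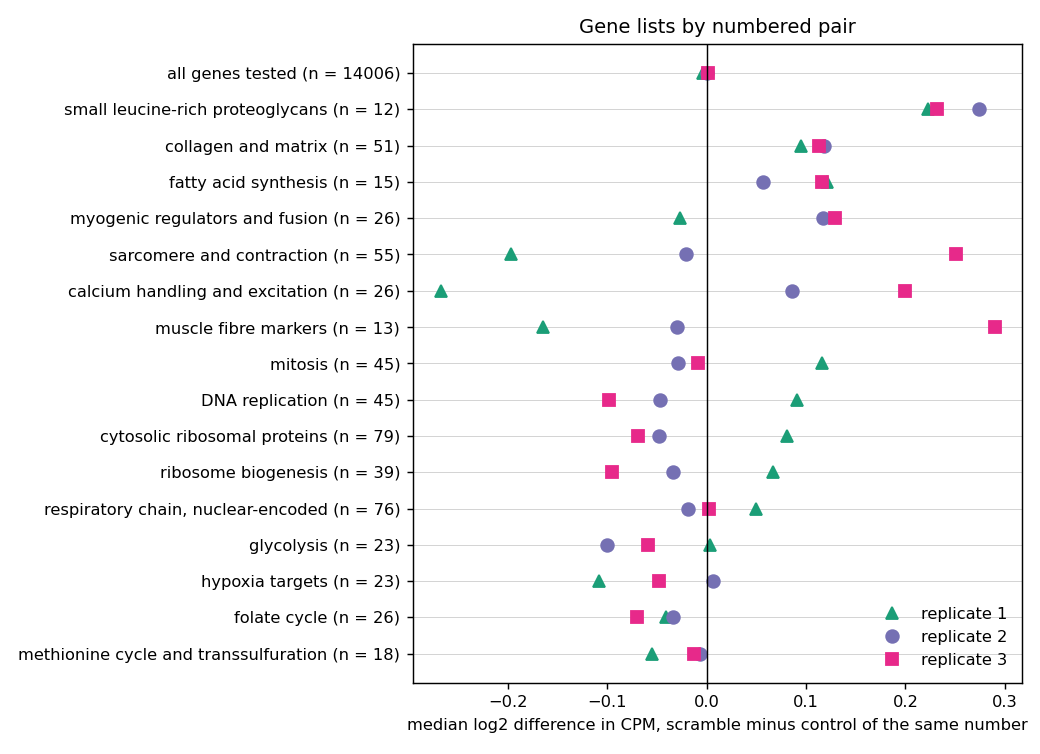
Median log2 difference in CPM between the scramble and the control library of the same replicate number (x axis) for all tested genes and 16 gene lists (y axis, with the number of genes), 1 symbol per replicate number. The proteoglycan, matrix and fatty acid lists lie right of 0 in all 3 pairs, whereas the sarcomere list runs from -0.20 in pair 1 to 0.25 in pair 3. The proteoglycan list was drawn up after its values had been seen and shares members with the matrix list, so its position is descriptive.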

How the data were processed

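RNA was isolated with an RNeasy kit and libraries were made with a SMARTer mRNA-seq kit, per the labels' protocols. Among the tools in the submitters' processing notes are STAR, Salmon 1.5.2, featureCounts and DESeq2 1.28.0, with the build GRCm39 and without roles. Whether strand was used in counting, and which of these tools made each value, could not be read from the labels. For 33984 RefSeq transcripts with 24063 symbols the deposited tables list, per the file headers, the count beside FPKM and TPM. The authors' counts are whole numbers, not normalized. The authors' FPKM and TPM values were not tested here.

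For each symbol, only the transcript whose mean count over the 9 libraries was highest was kept. Genes passing filterByExpr were tested with edgeR 4.0.16 (R 4.3.3; TMM, robust quasi-likelihood test, Benjamini-Hochberg over all tested genes, called below 0.05), with all 9 libraries in 1 fit, then without the 3 libraries numbered 1. CPM and log2 values (prior count 2) were computed from these counts, and fold changes are log2 ± SE from the fit. DESeq2 1.42.0 and limma 3.58.1 (voom) were alternatives. The edgeR step was tested on simulated data. No pair of control or scramble libraries agreed within sampling noise (chi-square of 3.30 to 47.9 per degree of freedom), so none was merged. Deviations from the group means correlated between control and scramble libraries of the same number (r = 0.481, 0.214 and 0.168 for numbers 1 to 3, all over 0.1), so the numbers were taken to pair the libraries. Control replicate 3 and scramble replicate 2 had r = 0.242, and control replicate 2 and scramble replicate 3 had r = 0.123. These correlations set number 1 apart but do not tell numbers 2 and 3 apart. The pairing of numbers 2 and 3 is therefore an assumption.

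Genes were named by rule: the 10 smallest p where fewer than 10 were called, and the 10 largest rises and falls of at least 5 CPM without the libraries numbered 1 and under the block. For lists the rule was up to 4 members with the smallest p with all 6 libraries. Outside this rule, further list members were named because they were called without the libraries numbered 1. Members, lists and rules were chosen with earlier results of these data known, and the proteoglycan list after its values were seen.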

Additional observations from a re-analysis of the deposited data

How the results depend on the processing

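With all libraries, 0 genes were called higher and 0 lower by edgeR with library size alone, upper quartile or RLE scaling, under the other filters, with limma-voom, the 6 libraries alone, the replicate block with all 9 libraries, the mean over transcripts, without Rn45s, at an adjusted p below 0.01, and without the libraries numbered 2 or 3. DESeq2 called 4 higher and 0 lower, the replicate block with the 6 libraries alone 7 higher and 2 lower, and the fit without the libraries numbered 1 called 81 higher and 15 lower. Leaving out single libraries gave 0 to 2 higher and 0 to 1 lower. The calls were made without control replicate 1: Omd and Fbln7 higher and Dynap lower.

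Without the libraries numbered 1, an alternative whose further settings were chosen after seeing the data, the 4 control and scramble libraries alone gave 129 higher and 28 lower, limma-voom 46 higher and 11 lower, and an adjusted p below 0.01 left 18 higher and 3 lower. RLE, upper quartile, library size alone and DESeq2 gave 66 to 81 higher and 11 to 17 lower, and the replicate block 86 and 15, with 88 of the 96 genes among them. Leaving out 1 further library gave 7 to 66 higher and 3 to 11 lower. The cause of these differences was not tested. Groups of 2 libraries limit what these calls show, and differences of the size seen here can go uncalled.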

Other observations

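Some genes outside the comparisons above were called without the libraries numbered 1. Angptl1, which encodes a secreted angiopoietin-like protein and lies under 5 CPM, stood at 0.44, 0.0619 and 0.149 CPM in control and at 0.564, 0.649 and 0.747 CPM in scramble, which do not overlap. It was called higher (edgeR adjusted p = 0.0368) at levels near the detection limit of these libraries, so no fold is given. The call was lost under each further single removal (adjusted p = 0.113 to 0.374). Spp1, which encodes osteopontin, fell by 0.18 on the log2 scale (adjusted p = 0.0125), with 7225, 9699 and 9730 CPM in control and 7536, 8687 and 8428 CPM in scramble. Pygm, the glycogen phosphorylase of muscle, rose by 0.32 (edgeR adjusted p = 0.0200). It had 68.7, 24.7 and 23.6 CPM in control and 50.4, 29.0 and 31.3 CPM in scramble. C1qtnf3, a secreted C1q-family protein, rose by 0.25 (edgeR adjusted p = 0.00121). It had 526, 451 and 456 CPM in control and 525, 539 and 541 CPM in scramble. None of these was called with all 6 libraries, where Spp1, Pygm and C1qtnf3 had log2 fold changes of -0.11, -0.07 and 0.16. Spp1 and Pygm kept their calls only without scramble replicate 2 among the 4 further single removals (adjusted p = 0.0256 each), and C1qtnf3 without either scramble library. These 4 genes were chosen after their values were seen.

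Sterol genes were not called in either comparison, yet 5 of 25 had all scramble values above all control values and 0 had all below (4.83% and 4.26% of all genes). The adipocyte markers were higher in sum with scramble, as given above, but only 2 of them, Lpl and Pparg, passed the filter for testing. Of these 2, 1 had a log2 fold change above 0 with all 6 libraries and 2 had one without those numbered 1. The sum therefore does not describe the markers as a set, and the part of such cells in the lipid results was not tested.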
